A study of Mus musculus with 5 samples.

Results

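The mitochondrial ribosomal protein genes were taken as every gene of the count table whose symbol is Mrpl or Mrps followed by a number and, at most, a letter. This rule found 76 of the 23478 genes in the table, 47 named for the large subunit (Mrpl) and 29 for the small subunit (Mrps). RNA-Seq had been done on GFP-sorted lung cells, labelled as fibroblasts, from mouse pups at postnatal day 6 (P6). All pups carried the Gli1-CreERT2 driver, a tamoxifen-inducible Cre made by cells that express Gli1, and the Rosa26-eGFP reporter that marks recombined cells, and all received tamoxifen, 100 μg per pup, on P0 and P1. The 2 control libraries came from pups with an Igf1r Flox/Wildtype genotype, so the controls also carried 1 floxed Igf1r allele, and the 3 Igf1r-deleted libraries came from Flox/Flox pups, in which both copies of the gene for the insulin-like growth factor 1 receptor are floxed. The mice were of both sexes and mixed background. The number of pups behind each library is not given in the sources used here, so p-values measure the spread between these libraries, which may in part be technical.

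Mitochondria make a small set of respiratory chain proteins on ribosomes of their own. The rRNAs of these ribosomes are encoded in mitochondrial DNA, but every protein subunit is encoded in the nucleus, made in the cytosol and imported. Some subunits have homologs in the bacterial ribosome and others are found only in mitochondria. The large subunit forms the peptide bond and passes the new chain out through an exit tunnel to the inner membrane, and the small subunit holds the mRNA and decodes it. Symbols do not always give the position in the ribosome. Mrps30 (mL65) and Mrps18a (mL66) sit in the large subunit, and Mrps36 is an adaptor of the 2-oxoglutarate dehydrogenase complex rather than a ribosomal subunit. The levels of the mitochondrially encoded rRNAs and mRNAs were not analysed here.

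Promoters of these genes are known for binding sites of NRF1, GABP and YY1, nuclear factors that act on many genes for mitochondrial proteins. Promoter sequences from RefSeq (GRCm38.p6, 250 bases before to 50 bases after each start) were matched by symbol for 67 of the 76 genes. The NRF1 motif (GCGCA and GCGC with any 1 base between them), searched like the others on both strands, was found in 12 of the 67 (17.9%), against 10.2% of the tested genes with a promoter entry and 5.2% of all genes with a promoter entry. The ETS motif CCGGAAG, which GABP binds, was found in 24 (35.8%, against 17.7% of tested and 9.9% of all genes). The YY1 motif AAGATGGCG was found in 8 (11.9%, against 3.1% of tested and 1.6% of all genes). At least 1 of these 3 motifs was present in 39 of the 67 (58.2%, against 27.7% of tested and 15.1% of all genes). The E-box CACGTG of MYC and related factors was found in 5 (7.5%, against 11% and 8.1%), and the TATA box letters TATAAA were also found in 5 (7.5%, against 9.3% and 15.7%). Such matches are letters in a window and were not tested as binding sites. The same search of 57 cytosolic ribosomal protein promoters found the ETS motif in 40.4%, the NRF1 motif in 8.8%, the YY1 motif in 5.3% and at least 1 of the 3 in 52.6%.

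The promoters of 4 genes show these motifs beside genes described further on, each as the 150 bases before the start, 5′ to 3′ on the strand of the gene, with the motif in capitals. Mrpl17 (chr7:105811088-105811237, minus strand) has an NRF1 motif. Mrpl22 (chr11:58171514-58171663, plus strand) has an ETS motif. Mrpl36 (chr13:73330859-73331008, plus strand) has a YY1 motif read on the opposite strand, and the E-box letters stand in lower case before it. This window precedes the RefSeq start. GENCODE M21, the annotation used below for gene positions, starts Mrpl36 further upstream (chr13:73328513-73332178), so the window lies inside that gene span. Mrps11 (chr7:78782981-78783130, plus strand) also has a YY1 motif on the opposite strand, and its start faces that of Mrpl46, a gene of the large subunit.
Mrpl17: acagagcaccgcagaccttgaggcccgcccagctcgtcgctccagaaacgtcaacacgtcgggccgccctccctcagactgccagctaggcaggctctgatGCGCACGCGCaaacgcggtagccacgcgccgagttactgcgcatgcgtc
Mrpl22: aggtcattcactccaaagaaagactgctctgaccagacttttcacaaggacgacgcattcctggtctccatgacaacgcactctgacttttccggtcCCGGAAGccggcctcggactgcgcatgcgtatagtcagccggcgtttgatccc
Mrpl36: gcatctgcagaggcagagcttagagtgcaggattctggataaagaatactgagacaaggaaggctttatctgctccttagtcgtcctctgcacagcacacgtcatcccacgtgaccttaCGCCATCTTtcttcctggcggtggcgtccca
Mrps11: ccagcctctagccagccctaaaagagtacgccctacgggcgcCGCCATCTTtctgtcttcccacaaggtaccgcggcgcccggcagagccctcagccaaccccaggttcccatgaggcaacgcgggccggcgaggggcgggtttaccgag

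Library totals ranged from 35116766 to 37597857 counts, and the TMM factors that rescale them ranged from 0.961 to 1.06. Igf1r, the deleted gene, had 324 and 324 CPM (counts scaled to the effective library size) in controls against 140, 177 and 194 CPM after deletion, that is, in the Igf1r-deleted libraries, a log2 fold change of -0.93. Its edgeR Benjamini-Hochberg adjusted p was 0.354, and that of DESeq2 was 1.14e-05. Fibroblast markers were abundant in every library, with 9 defining genes summing to 30583 to 38854 CPM, and 8 of the 9 had a negative log2 fold change (median -0.18). Markers of other cell types were lower in sum: 504 to 1114 CPM for 12 epithelial genes, 296 to 874 CPM for 12 endothelial genes and 249 to 692 CPM for 12 hematopoietic genes. Negative values were given by 10 of 12 epithelial genes (median -0.34) and 8 of 12 endothelial genes (median -0.14), and positive values by 9 of 12 myofibroblast genes (median 0.32). All 12 hematopoietic genes had a negative log2 fold change (median -0.68), as did 16 of 16 genes of the dissociation and immediate early response (median -0.45), and 15 of 15 proliferation genes had a positive value (median 0.41). The part of these differences in the results given here was not tested. In bulk libraries of sorted cells, fewer cells of a type and less RNA per cell cannot be told apart.

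All 76 mitochondrial ribosomal protein genes passed the filter on low counts, and the lowest count of any of them in any library was 10. Together they held 0.115% and 0.114% of the counts in the controls and 0.121%, 0.125% and 0.118% in the Igf1r-deleted libraries. Their summed level was 1199 and 1167 CPM in controls against 1234, 1180 and 1156 CPM after deletion. The means were 1183 ± 22.7 CPM (SD, n = 2) and 1190 ± 39.9 CPM (SD, n = 3), a ratio of 1.01, and the genotypes overlapped. The raw shares, which lack the TMM factors, did not overlap. Scaled by library totals alone, the ratio was 1.06.

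Gene by gene, 34 had a negative and 42 a positive log2 fold change (Igf1r-deleted against control), where 47.7% of all tested genes had a negative and 52.3% a positive value. The 76 genes had a median of 0.020, close to the median of 0.015 over all 15298 genes tested. With library totals alone the split was 23 and 53. The quartiles were -0.11 and 0.15, and 60 of the 76 (78.9%) differed by less than 0.25 on the log2 scale, against 60.1% of all tested genes. Shares were 80% for 75 respiratory chain genes, 95% for 20 genes of import and mitochondrial mass and 14.1% for 78 cytosolic ribosomal protein genes. The 76 genes were not matched for level with all tested genes. None of the 76 passed an adjusted p of 0.05 by edgeR's quasi-likelihood test, and 0% of all genes did. The smallest adjusted p among the 76 by this test was 0.364. By DESeq2 also none was called, against 1.49% of the genes with an adjusted p. At an unadjusted p under 0.05, edgeR gave 4 of the 76 (5.26%) and DESeq2 gave 3, where the same threshold took 12.4% of all genes by edgeR and 10.9% by DESeq2. All 4 were higher in the Igf1r-deleted libraries, the direction of 5.65% of all genes at this threshold. The levels of the genotypes did not overlap for 22 genes, 8 lower and 14 higher, which is 28.9% against 31% of all tested genes.

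A missed threshold does not show that levels were equal. The 95% interval of the fold change lay within 1.5-fold either way for 54 of the 76 (71.1%), against 47.1% of all tested genes. These too were not matched for level. Only 3 of the 76, Mrpl21, Mrps18b and Mrps18c, had a fitted difference beyond 1.5-fold. All 3 were among the 9 genes with a mean under 5 CPM, a limit chosen after the values were seen. In those 9 genes the log2 fold changes ran from -0.81 to 0.98, and in the other 67 from -0.34 to 0.35.

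**Figure D1:**
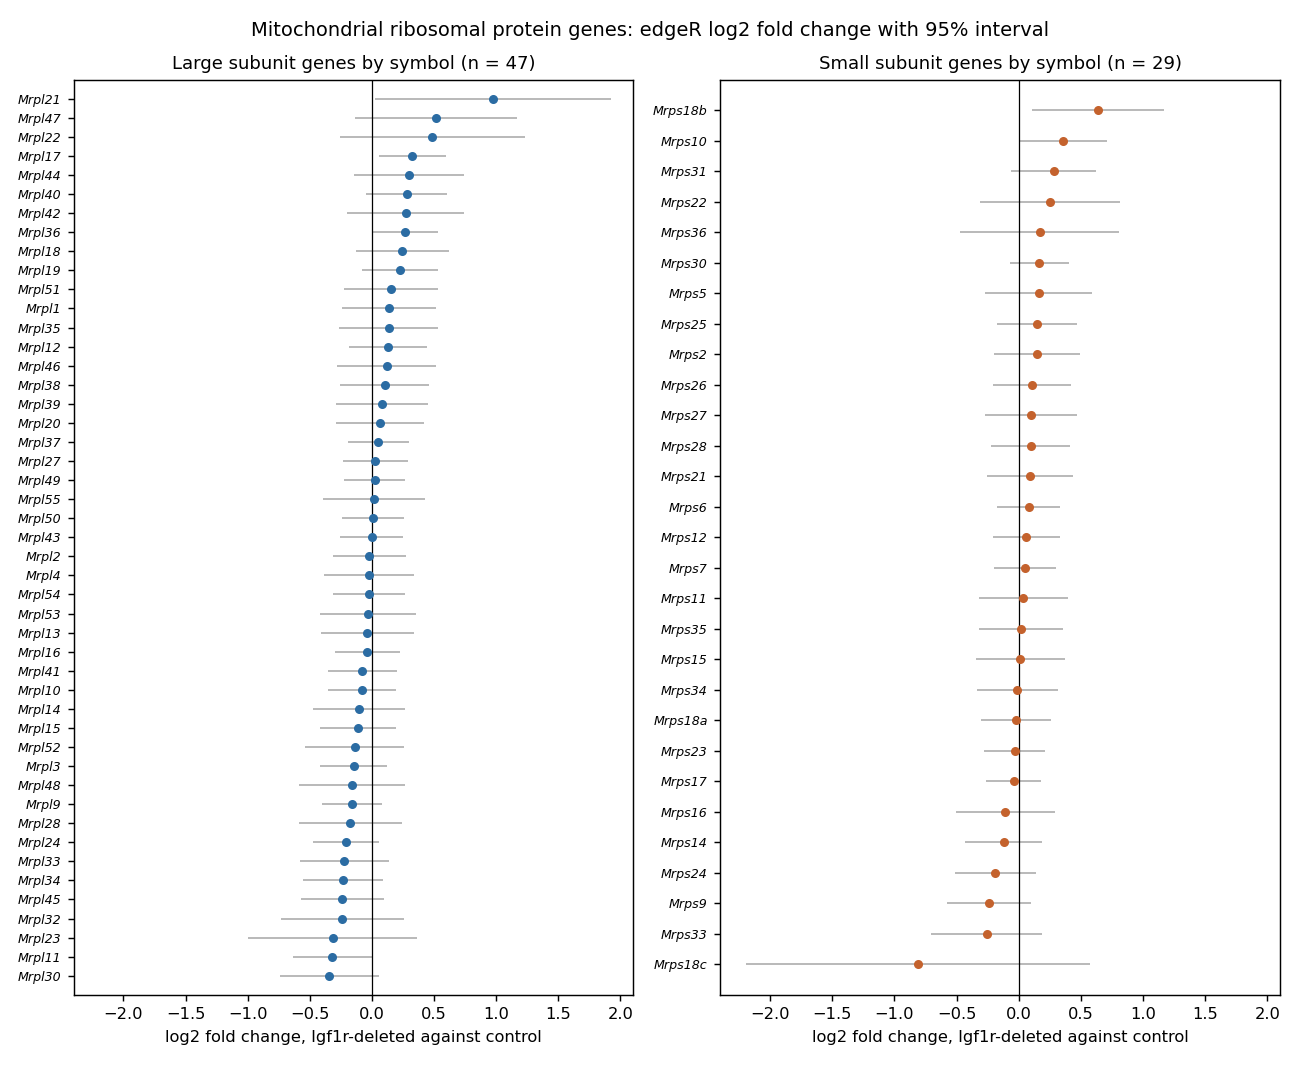
Log2 fold change of each mitochondrial ribosomal protein gene (points; x axis, Igf1r-deleted against control) with its 95% interval (lines), for 47 large and 29 small subunit genes by symbol. Most points lie within 0.25 of 0, and the widest intervals belong to Mrpl21 and Mrps18c, which have few counts.

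Mrps18b encodes mS40, a small subunit protein, and had the smallest p of the 76 genes. Its level was 2.53 and 2.86 CPM in controls against 4.36, 4.07 and 4.17 CPM after deletion. Every Igf1r-deleted library was above both controls. The log2 fold change was 0.64 ± 0.22 (SE), with an edgeR unadjusted p of 0.0242 and a Benjamini-Hochberg adjusted p of 0.364. The gene lies at chr17:35910379-35916389 on the minus strand (mm10, GENCODE M21). In that annotation 59.1% of its exon bases overlap Gm16279 on the opposite strand, and 31.4% of its 31-base words also occur in other genes, so reads of other genes may be part of its count.

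Mrps18b is 1 of 3 related genes whose products take different places. Mrps18c (bS18m) is the counterpart of bacterial S18 in the small subunit, and Mrps18a (mL66) is in the large subunit. Mrps18c had 0.893 and 0.737 CPM in controls against 0.283, 0.302 and 0.807 CPM after deletion. Libraries 1 and 2 of the Igf1r-deleted group were below both controls and library 3 lay between them, and the log2 fold change was -0.81 with a 95% interval from -2.19 to 0.57. Mrps18a had 14.7 and 15.985 CPM in controls against 14.9, 15.2 and 15.3 CPM after deletion, all 3 within the range of the controls. Its log2 fold change was -0.02, with an interval from -0.30 to 0.26. Of the 31-base words of Mrps18c, 21.5% occur in other genes, and of those of Mrps18a none do.

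Genes of the peptide exit lay on both sides of 0. Mrpl17 (bL17m), beside the exit of the tunnel, had 22.3 and 25.2 CPM in controls against 30.7, 31.02 and 27.2 CPM after deletion. The genotypes did not overlap, with means of 23.7 ± 2.05 CPM (SD, n = 2) and 29.6 ± 2.14 CPM (SD, n = 3). The log2 fold change was 0.32 ± 0.11 (SE), with an edgeR unadjusted p of 0.0253 and an adjusted p of 0.364. Mrpl17 (chr7:105803206-105811099, minus strand, 2 exons) overlaps no other annotated exon, and 0.2% of its 31-base words occur elsewhere. Mrpl47 (uL29m), also at the exit, had 1.84 and 2.37 CPM in controls against 2.63, 3.37 and 3.03 CPM after deletion, with a log2 fold change of 0.51. Mrpl22 (uL22m), in the tunnel wall, had 2.51 and 1.69 CPM against 3.23, 3.29 and 2.28 CPM, with a log2 fold change of 0.49. The third Igf1r-deleted library of Mrpl22 fell between the controls, and 43.2% of its 31-base words are shared with Gm6997.

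Other exit genes had lower levels in the Igf1r-deleted libraries. Mrpl23 (uL23m) had 2.65 and 3.001 CPM in controls against 2.61, 1.76 and 2.45 CPM after deletion. The log2 fold change was -0.32, with an interval from -0.99 to 0.36, and 53.0% of its 31-base words are shared with the pseudogene Mrpl23-ps1. Mrpl45 (mL45), which anchors the ribosome at the inner membrane, had 16.3 and 13.8 CPM against 13.4, 13.1 and 11.7 CPM. Its log2 fold change was -0.24, with an edgeR unadjusted p of 0.136. Over the 7 genes of the tunnel and its exit, 4 values were negative and 3 positive, with a median of -0.025. The genotypes did not overlap for 5 of the 7, against 28.9% of the 76 genes and 31% of all tested genes. In the other groups by role, all small, this count was 1 of 6 (stalks, with Mrpl1) and 2 of 7 (central protuberance). It was 3 of 8 for the head, mRNA path and decoding centre. Of these 7 genes 3 differed by less than 0.25, against 60.1% of all tested genes.

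Mrpl36 (bL36m), a small protein of the large subunit core, had 19.3 and 18.2 CPM in controls against 22.7, 21.4 and 23.7 CPM after deletion. All 3 Igf1r-deleted values were above both controls, with a log2 fold change of 0.27 ± 0.11 (SE) and an edgeR unadjusted p of 0.0447. In GENCODE M21 the gene (chr13:73328513-73332178, plus strand) starts opposite Ndufs6, a subunit of respiratory complex I. The promoter printed above precedes another start, that of RefSeq. Ndufs6 had 5.47 and 5.02 CPM in controls against 5.16, 5.03 and 4.42 CPM after deletion. Mrpl21 (bL21m), another large subunit protein, had the largest positive difference of the 76 genes. It had 0.893 and 0.546 CPM in controls against 1.303, 1.307 and 1.64 CPM after deletion, a log2 fold change of 0.98 with an interval from 0.03 to 1.93 and an edgeR unadjusted p of 0.0451. Of its 31-base words, 15.4% occur in D9Wsu149.

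The base of the stalk that recruits translation factors included the gene with the smallest p among the lower ones. Mrpl11 (uL11m) had 17.4 and 18.2 CPM in controls against 15.8, 14.2 and 12.8 CPM after deletion. The genotypes did not overlap, with a log2 fold change of -0.32 ± 0.14 (SE) and an edgeR unadjusted p of 0.0504. Mrpl11 (chr19:4962147-4966999, plus strand, 5 exons) overlaps no other annotated exon. Mrpl12 (bL12m), the flexible arm of the stalk, had 13.1 and 13.6 CPM in controls against 15.6, 14.9 and 13.4 CPM after deletion, with overlap. Of the 5 genes of this stalk and its base, 4 had negative values (Mrpl10, Mrpl11, Mrpl53 and Mrpl54).

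Mrpl30 (uL30m) had 7.11 and 7.28 CPM in controls against 5.95, 5.61 and 5.48 CPM after deletion, the largest negative difference in the large subunit at -0.34. Its groups did not overlap, and the edgeR unadjusted p was 0.0823. In the central protuberance, the crown of the large subunit, 6 of 7 genes had positive values, with a median of 0.10. Mrpl40 (mL40), among these, had 9.01 and 9.30 CPM in controls against 11.2, 10.8 and 11.3 CPM after deletion. Mrpl48 (mL48) was the exception, at -0.16.

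In the small subunit, Mrps10 (uS10m), a protein of the head, had 8.72 and 9.47 CPM in controls against 11.9, 10.6 and 12.5 CPM after deletion. All Igf1r-deleted values were above both controls, with a log2 fold change of 0.35 ± 0.15 (SE) and an edgeR unadjusted p of 0.0504. Of its 31-base words, 21.8% occur in another gene. Mrps33 (mS33) had 9.44 and 7.83 CPM in controls against 8.10, 7.37 and 6.18 CPM after deletion, which overlapped, with a log2 fold change of -0.26. Among 8 genes of the head, the mRNA path and the decoding centre, 5 values were positive and 3 negative, with a median of 0.045.

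**Figure D2:**
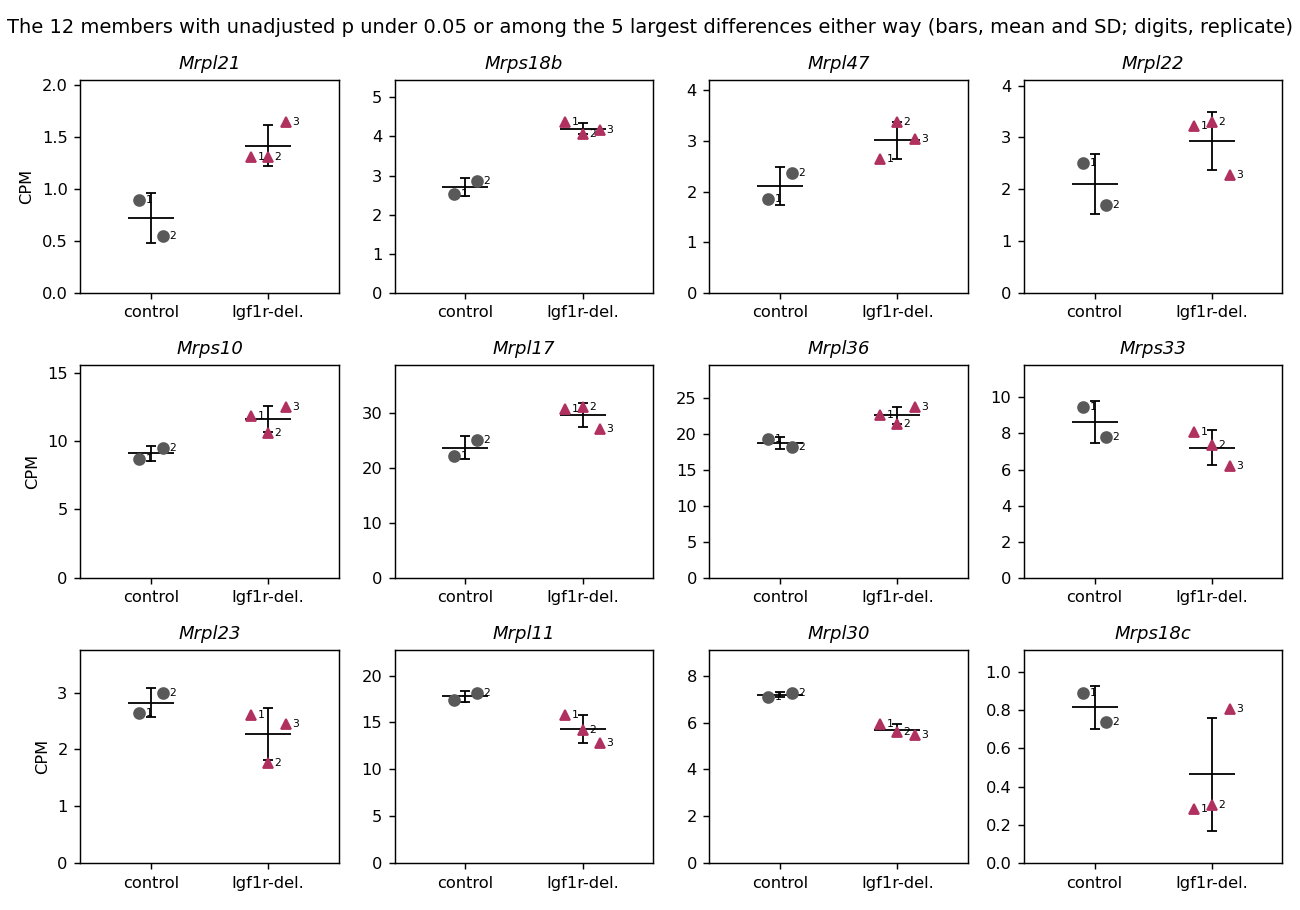
Level in CPM (y axes, from 0) of 12 mitochondrial ribosomal protein genes in 2 control (circles) and 3 Igf1r-deleted (triangles) libraries, with digits for the replicate and bars for mean and SD. Mrps18b, Mrpl17, Mrpl36, Mrpl21 and Mrps10 lie higher in all Igf1r-deleted libraries, Mrpl11 and Mrpl30 lie lower, and Mrps18c and Mrpl22 overlap.

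The large and small subunits were compared next. The 47 large subunit genes summed to 765 and 736 CPM in controls against 777, 741 and 720 CPM after deletion, and the genotypes overlapped. The 29 small subunit genes summed to 433.7 and 430.3 CPM in controls against 457, 439 and 437 CPM after deletion, each of the latter above both controls. The ratio of large to small was 1.76 and 1.71 in the controls and 1.70, 1.69 and 1.65 in the Igf1r-deleted libraries. All 3 Igf1r-deleted ratios were thus below both controls, with means of 1.68 ± 0.026 (SD, n = 3) and 1.74 ± 0.037 (SD, n = 2). Igf1r-deleted library 1 differed from control library 2 by less than the SD of either group. With 2 libraries against 3, an exact two-sided permutation test cannot go below p = 0.1, and none was run on these sums.

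The genes were also counted by their position in the ribosome. Mrps30 had 35.9 and 31.3 CPM in controls against 38.3, 37.96 and 36.9 CPM after deletion, all above both controls. Once Mrps30 and Mrps18a were counted with the large subunit, where they sit, and Mrps36 was left out, the ratios were 2.14 and 2.06 in the controls and 2.07, 2.07 and 2.02 in the Igf1r-deleted libraries. These overlapped, with means of 2.099 ± 0.060 (SD, n = 2) and 2.053 ± 0.029 (SD, n = 3). The median log2 fold change was -0.0036 for the large subunit by symbol, a sign that turned with library totals alone (0.068), and 0.061 for the small. The large subunit had 24 negative and 23 positive values, and the small 10 and 19. By position the medians were -0.0036 over 49 and 0.057 over 26 genes. Genes with a bacterial homolog split 23 and 23, with a median of -0.0029, and genes found only in mitochondria split 11 negative and 18 positive, with a median of 0.052.

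**Figure D3:**
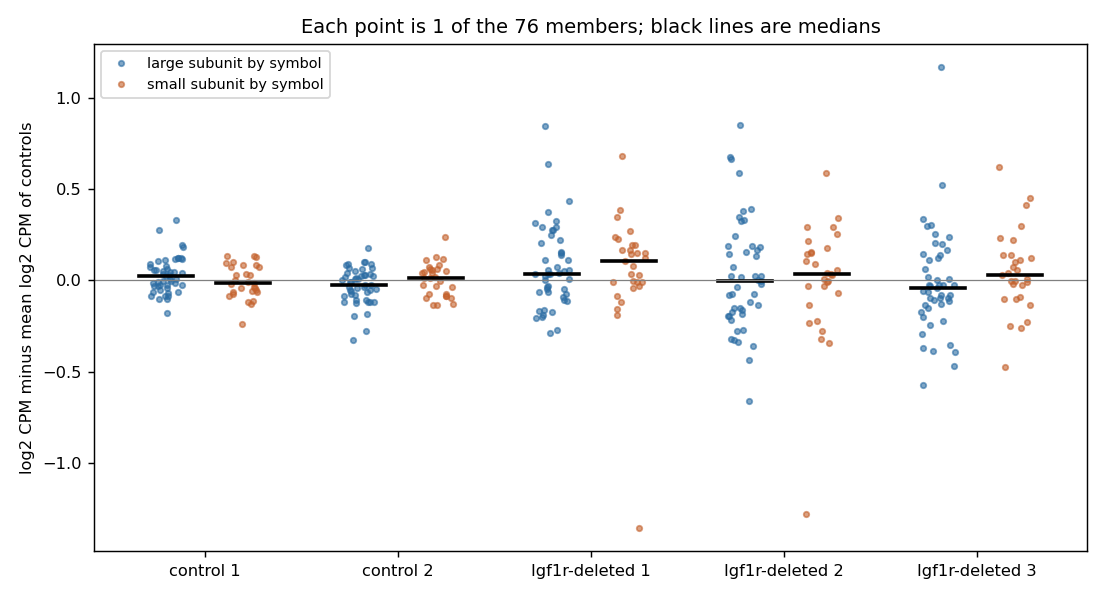
Log2 CPM of each gene minus the mean log2 CPM of the controls (y axis) in each of 5 libraries, for large and small subunit genes by symbol, with black lines for medians. The medians stay close to 0 in every library, and the small subunit median is above the large in the 3 Igf1r-deleted libraries with this centring on the 2 controls. With centring on the mean of all 5 libraries it is below the large in Igf1r-deleted library 2 (0.0030 against 0.024).

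The libraries within a genotype also differed. Igf1r-deleted library 1 had the highest value of the 5 libraries for 23 of the 76 genes and the lowest for 7. Over all tested genes this library was the highest for 18.1% and the lowest for 18.4%. Without it the median log2 fold change of the 76 genes was -0.011. The spread of the genes around their mean over libraries (SD of log2 deviations) was 0.160 to 0.184 per library, against 0.296 to 0.425 over all tested genes. Here also all tested genes were not matched for level.

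Levels were compared between genes per length, as CPM per kilobase of the exons annotated in GENCODE M21, which may not be the annotation used for counting. The length was that of the exons of all protein-coding transcripts of a gene, merged, so a long exon in any transcript lowers the value. The levels spanned 55.3-fold. The highest was Mrpl33 (bL33m), with a mean of 35.5 and a range from 28.7 to 41.0 over the 5 libraries, followed by Mrpl34 (bL34m) at 33.6, Mrps34 (mS34) at 32.7, Mrps6 (bS6m) at 29.9 and Mrpl54 (mL54) at 29.8. The ranges of these 5 over libraries overlapped, so their order is not set. All 5 had log2 fold changes between -0.23 and 0.082, none with an edgeR unadjusted p under 0.05. For Mrps34, 62.7% of the exon bases overlap Mapk8ip3 on the opposite strand, for Mrpl33 37.0% overlap Gm43809, and for Mrps6 36.1% overlap other genes on its own strand. The lowest were Mrps18c at 0.643, Mrpl47 at 0.788, Mrpl21 at 0.835, Mrpl48 at 1.26 and Mrps5 (uS5m, at the mRNA entrance) at 1.56, and the ranges of the lowest 3 overlapped. The median was 10.5 for the large and 7.48 for the small subunit genes by symbol. Merged exon length ran from 478 (Mrpl33) to 918 bases (Mrps34) in the 5 highest genes. In the 5 lowest it ran from 940 (Mrps18c) to 5469 bases (Mrpl48). The part of length in these levels was not tested.

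**Figure D4:**
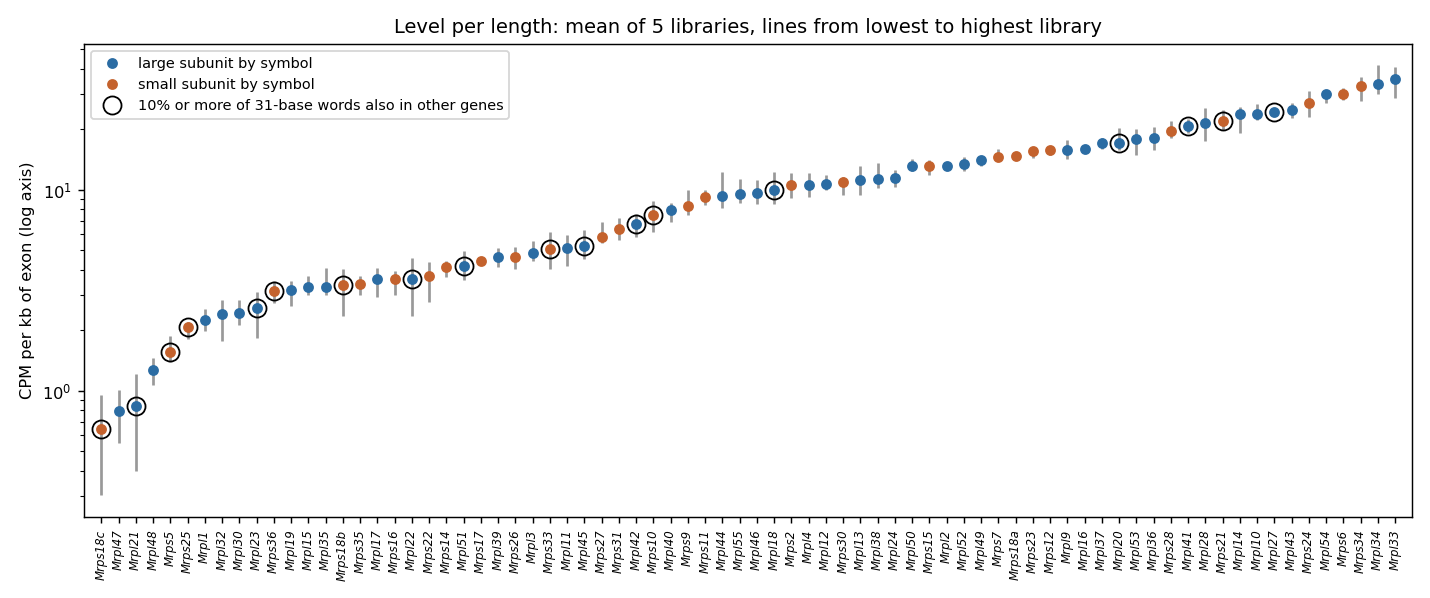
Level per length (y axis, CPM per kilobase of exon, log axis) of the 76 genes in rising order, as the mean of 5 libraries with lines from the lowest to the highest library; rings mark genes with 10% or more of their 31-base words in other genes. Levels run from 0.643 for Mrps18c to 35.5 for Mrpl33.

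Shared sequence moved with level. Across the 76 genes Spearman's rho between level per length and the share of 31-base words found in other genes was -0.439, a description over genes of the same libraries. In all, 18 of the 76 had 10% or more of their words elsewhere and 21 had 10% or more of their exon bases under another gene. Among the 41 genes with neither, 20 had negative and 21 positive log2 fold changes, with a median of 0.0068. How reads that match several places, and reads from either strand, were counted is not given in the sources used here.

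A feature that the choice of genes did not use was the arrangement of their starts. Of the 76, 32 (42.1%) had a protein-coding gene on the opposite strand that starts within 1000 bases of their own start, against 14.6% of 13893 tested protein-coding genes. Some respiratory chain genes (such as Ndufa1 and Ndufa2) and cytosolic ribosomal protein genes (such as Fau) also have such neighbours. Their shares were not counted, so the arrangement is not shown to be particular to the 76. By the outermost gene boundaries in GENCODE M21, in 17 of the 32 the genes do not overlap at their starts. In the others the 5′ ends overlap by this measure. The RefSeq starts used for the promoters can differ from these boundaries. Of these neighbours 30 were tested, and 17 had a fold change of the same sign as the ribosomal gene and 13 of the opposite sign. Mrps11 and Mrpl46 are each other's neighbour and are counted from both sides. Mrps11 (uS11m), at the mRNA exit, had 9.39 and 9.66 CPM in controls against 10.5, 9.91 and 8.88 CPM after deletion, and Mrpl46 (mL46), in the central protuberance, had 10.9 and 9.82 CPM against 9.60, 11.4 and 12.7 CPM. Both overlapped between genotypes.

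Mrpl49 (mL49) and Fau, which encodes cytosolic ribosomal protein S30 as a fusion, start 59 bases apart. Mrpl49 had 24.3 and 27.3 CPM in controls against 27.1, 26.2 and 25.3 CPM after deletion, all 3 within the range of the controls, with a log2 fold change of 0.02 and an interval from -0.22 to 0.27. Fau had 20.2 and 18.1 CPM in controls against 16.2, 14.2 and 12.5 CPM after deletion, all below both controls, with a log2 fold change of -0.42 and an interval from -0.77 to -0.08. The edgeR unadjusted p was 0.846 for Mrpl49 and 0.0234 for Fau, and the difference between the genes was not tested. Eme2, a DNA repair gene that starts 29 bases from Mrps34, had 3.40 and 3.52 CPM in controls against 5.33, 7.89 and 6.48 CPM after deletion, a log2 fold change of 0.93. Mrps34 itself had 31.8 and 28.7 CPM against 33.5, 30.9 and 25.3 CPM, with a log2 fold change of -0.01 that turned positive with library totals alone (0.059).

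A further 7 subunits of the mitochondrial ribosome have other names and gave 4 negative and 3 positive values, with a median of -0.0086. Ptcd3 (mS39), which meets the mRNA as it enters the small subunit, had 7.31 and 8.32 CPM in controls against 9.35, 10.5 and 13.8 CPM after deletion. All Igf1r-deleted values were above both controls, with a log2 fold change of 0.52, an edgeR unadjusted p of 0.0388 and an adjusted p of 0.395. Dap3 (mS29), a GTP-binding protein of the head, was at 0.09. Chchd1 (mS37), Aurkaip1 (mS38), Gadd45gip1 (mL64), Ict1 (mL62, a peptidyl-tRNA hydrolase built into the ribosome) and Mrp63 (mL63) lay between -0.08 and 0.03. The sign of each of these last 5 turned under at least 1 other setting.

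The proteins that build and use the ribosome were read from lists of known genes. Of 28 assembly and rRNA modification genes, 11 values were negative and 17 positive (median 0.065), and none had an edgeR unadjusted p under 0.05, against 12.4% of all genes. Of 15 translation factors, 2 were negative and 13 positive (median 0.15). Oxa1l, the insertase that places new chains in the inner membrane, had 51.7 and 45.6 CPM in controls against 35.4, 42.3 and 34.2 CPM after deletion. Its log2 fold change was -0.38, with an edgeR unadjusted p of 0.0179 and an adjusted p of 0.354. The release factor gene 2810006K23Rik (Mtrfr) had 6.51 and 6.66 CPM in controls against 9.24, 9.001 and 8.93 CPM after deletion, with a log2 fold change of 0.46 and an edgeR unadjusted p of 0.0196. Neither gene overlapped between genotypes.

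Among 21 tested genes for mitochondrial tRNA synthetases and related enzymes, 15 values were positive (median 0.10), and the only gene with an edgeR unadjusted p under 0.05 was a lower one, Fars2 for phenylalanine. Fars2 had 22.9 and 20.7 CPM in controls against 16.5, 17.1 and 14.4 CPM after deletion, a log2 fold change of -0.44. Of 21 genes for mitochondrial DNA, transcription and RNA, 10 values were negative and 11 positive (median 0.015). Tfam, which packages mitochondrial DNA and starts its transcription, had 23.4 and 26.3 CPM in controls against 28.6, 31.2 and 31.9 CPM after deletion, a log2 fold change of 0.30 with an edgeR unadjusted p of 0.0275. The RNase P nuclease gene 1110008L16Rik (Prorp) was at -0.43, with an edgeR unadjusted p of 0.0450. The 20 genes for import and mitochondrial mass split 10 and 10, with none under that threshold.

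The 11 regulators included NRF1, GABP, YY1 and MYC, whose motifs are described above. Nrf1 had 31.01 and 30.3 CPM in controls against 30.5, 33.4 and 32.7 CPM after deletion, and Gabpa, the DNA-binding part of GABP, had 101 and 104 CPM against 108, 99.4 and 109 CPM. Both overlapped. Gabpb1, the partner of Gabpa, had 20.6 and 22.7 CPM in controls against 27.4, 26.9 and 28.1 CPM after deletion, all above both controls, with a log2 fold change of 0.34 and an edgeR unadjusted p of 0.0117. Myc, which raises ribosome production in many cells, had 60.1 and 35.7 CPM in controls against 32.4, 20.9 and 22.7 CPM after deletion, with a log2 fold change of -0.92 and an edgeR adjusted p of 0.354 (DESeq2 0.0463). Mycn, its relative, had 10.4 and 11.5 CPM in controls against 12.3, 16.6 and 15.9 CPM after deletion, a log2 fold change of 0.45. Myc is also among the immediate early genes that were lower in these libraries.

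The nuclear-encoded respiratory chain subunits and the cytosolic ribosomal proteins are the closest comparisons, the first in the same organelle and the second in the same kind of machine. Of 75 respiratory chain genes, 54 values were negative and 21 positive, with a median of -0.12, and at an edgeR unadjusted p under 0.05 6 were lower (8%, near the 6.75% of all tested genes) and 0 higher. Ndufa6 (complex I) had 41.2 and 37.3 CPM in controls against 32.1, 22.6 and 23.4 CPM after deletion, and Cox4i1 (complex IV) had 186 and 174 CPM against 156, 132 and 132 CPM. The log2 fold changes were -0.59 for Ndufa6 and -0.37 for Cox4i1, and -0.31 and -0.33 for the complex I genes Ndufa10 and Ndufb11.

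Of 78 tested cytosolic ribosomal protein genes, 74 values were negative and 4 positive, with a median of -0.38, and 43 were lower at an edgeR unadjusted p under 0.05, against 6.75% of all genes. None of the 78 passed an adjusted p of 0.05 by edgeR, and 5 did by DESeq2, against 1.49% of all genes with an adjusted p. Rpl10a had 52.12 and 46.67 CPM in controls against 35.33, 35.95 and 37.03 CPM after deletion, a log2 fold change of -0.45 with an edgeR adjusted p of 0.354 and a DESeq2 adjusted p of 0.0287. Also below both controls in all 3 Igf1r-deleted libraries were Rpl5, at -0.57, and Rps7, at -0.66. The summed level was 6717 and 5981 CPM in controls against 5612, 4400 and 4440 CPM after deletion. Cytosolic ribosomal protein genes have many processed copies: their median share of 31-base words in other genes was 42.9%, against 1.95% for the mitochondrial ones. The part of such copies in the counts was not tested, nor was the difference between the 2 lists.

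**Figure D5:**
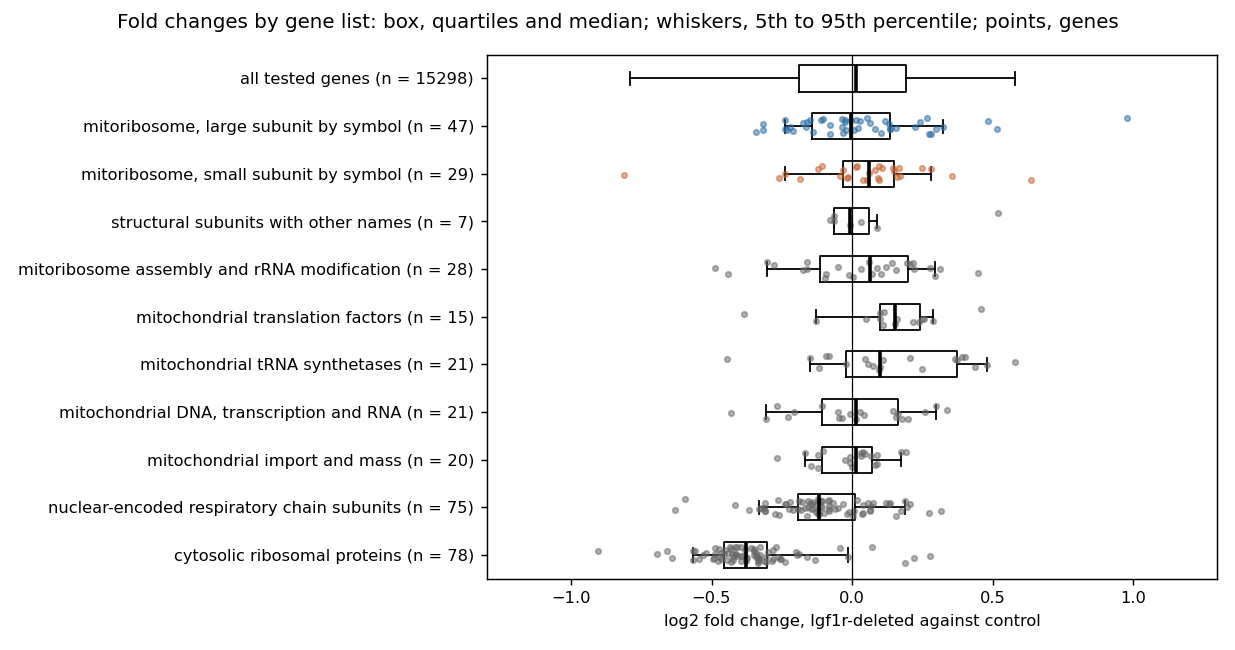
Log2 fold change (x axis, Igf1r-deleted against control) of the mitochondrial ribosomal protein genes by subunit, 8 further lists and all 15298 tested genes; boxes give quartiles and median, whiskers the 5th to 95th percentile, points single genes. The mitochondrial ribosomal protein boxes lie across 0, the respiratory chain median is -0.12 and the cytosolic ribosomal protein median is -0.38.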

How the data were processed

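The 5 libraries, 2 control and 3 Igf1r-deleted, were grouped by their labels. The authors prepared NEBNext Ultra libraries with 150-base paired reads, trimmed them (Trim Galore), aligned them to mm10 (Bowtie2) and counted them per gene with GenomicAlignments. They deposited raw counts, without normalization. The submitters' processing notes also name Cufflinks and DESeq. Strand, annotation and multi-mapping settings are not given in the sources used here.

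The two-sided quasi-likelihood F test of edgeR 4.0.16, run in R 4.3.3 beside limma 3.58.1, compared genotypes with no other term, after filterByExpr and TMM scaling. P-values were adjusted by Benjamini-Hochberg across 15298 genes. DESeq2 1.42.0 was an alternative. Log2 CPM used a prior count of 2. Intervals are 95% intervals of the fitted fold change. The edgeR fit was first tested on simulated counts with a fixed spread and large changes in genes with many counts. That run does not give its power for small changes in these libraries. Depth was 35116766 to 37597857 counts per library. Libraries of a genotype differed beyond sampling noise (chi-square divided by its degrees of freedom, 24.01 to 52.7). This does not show whether they came from separate pups. Control library 2 and Igf1r-deleted library 1 differed less (21.3), and the other pairs of unlike genotype ran from 53.5 to 139.

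Exon lengths, overlaps and shared 31-base words came from GENCODE M21, where all 76 symbols matched, and promoters from RefSeq. The genes named are those with an unadjusted p under 0.05, the 5 largest differences each way, the 5 highest and 5 lowest per length, subunits of other names and, for each other list, up to 4 genes with an unadjusted p under 0.05. Other genes (such as Mrps18a, Mrps30, Mrpl40, Mrpl45, Mrpl49, Fau and Eme2) were named after their values were seen. The genes and lists were chosen with earlier results of these data known. The values of 1 gene that this rule names are not reported here.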

Additional observations from a re-analysis of the deposited data

How the results depend on the processing

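None of the 76 mitochondrial ribosomal protein genes passed an adjusted p of 0.05 by edgeR, by DESeq2, by limma voom or under any other setting run. Over all genes, the count past that threshold was 0, against 197 with DESeq2, 136 with a replicate block and 0 to 45 when each library was left out in turn. At an edgeR unadjusted p under 0.05, 4 of the 76 became 2 with the replicate block (Mrpl17 and Mrps18b). Without Igf1r-deleted library 1, 2 or 3 in turn, the number was 5, 0 and 3. The 5 were Mrpl28, Mrpl11, Mrps24, Mrpl44 and Mrps18b, of which only Mrps18b was among the main 4. In the main fit Mrpl28, Mrpl11 and Mrps24 had negative log2 fold changes, and Mrpl44 and Mrps18b positive ones. The 3 were Mrpl17, Mrps18c and Mrps18b. The share of all genes was 12.4% in the main edgeR fit and was not computed for these runs. The number of the 76 not overlapping was 22 with all libraries and 26 to 46 when each library was left out in turn. With fewer libraries, levels are less likely to overlap by chance alone. The share of all tested genes not overlapping was not computed for these runs, so the rise is not shown to be particular to the 76. The block was a term for the replicate number of the labels, whose same-numbered libraries correlated at 0.208 and 0.121. With 2 such pairs and no stated shared litter or day, the numbers were not taken to pair the libraries.

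Scaling by library totals alone gave medians of 0.095 for the 76 genes, 0.068 for the large and 0.134 for the small subunit and 0.088 for all tested genes, and a ratio of summed levels of 1.06. Leaving out each library gave medians of -0.011 to 0.043 for the 76 genes, -0.053 to 0.012 for the large and 0.019 to 0.083 for the small subunit. Relative to all tested genes, the median of the 76 was 0.042 with the replicate block and -0.022 to 0.036 with a library left out. Counting only the 41 genes with little overlap or shared sequence, an alternative added after the data were seen, gave 0.0068. The ratio of large to small, which no scaling or test can change, was lower in the Igf1r-deleted libraries by 0.058 by symbol, by 0.045 by position, where the genotypes overlapped, and by 0.032 to 0.085 with a library left out.

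Signs turned for genes near 0. With library totals alone Mrpl54 was at 0.045, Mrps34 at 0.059, Chchd1 at 0.0021, Aurkaip1 at 0.0091 and Ict1 at 0.068, and with upper-quartile factors Ict1 was at 0.0026. With the replicate block Mrps34 was at 0.094, Chchd1 at 0.021, Ict1 at 0.029 and Mrp63 at 0.0035. With a library left out the ranges were -0.091 to 0.030 for Mrpl54, -0.11 to 0.090 for Mrps34, -0.22 to 0.026 for Chchd1, -0.059 to 0.11 for Gadd45gip1, -0.14 to 0.11 for Ict1 and -0.15 to 0.00048 for Mrp63. Igf1r and Myc passed the adjusted threshold with DESeq2 and with the block (adjusted p = 0.0139 and 0.0177 with the block), and Rpl10a, Rpl5 and Rps7 with DESeq2. The cause was not tested. Genes with few counts, such as Mrps18c and Mrpl21, had the widest intervals.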
